A study of Homo sapiens with 2 samples.

Results

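The cells described here are the tumour cells with the highest transcript levels of 4 integrated stress response genes, DDIT3, TRIB3, CHAC1 and SESN2, in a single-cell library of OVCAR5, a human ovarian carcinoma line. A barcode counted as a kept cell when it held 1000 or more detected genes and when no more than 20% of its unique molecular identifiers (UMIs, which count captured transcript molecules) came from mitochondrial genes. Of the 3538 kept cells, the highest 5% by summed counts of the 4 genes per 10000 gene UMIs formed the group. These 177 stress-high cells were set against the other 3361 kept cells, called the rest. The 4 genes chose the cells, so their own levels are given only as a description.

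The library was a pool of 5 tumours grown in NSG-b2m-/- mice, which were minced, digested with Liberase and DNase I and then exposed to recombinant cytokines outside the animal. The labels list 15 entries of 6 h each, of which 5 received 100 ng/ml IFNy with 10 ng/ml TNFa, 5 received 10 ng/ml TNFa and 5 were unstimulated. All cells, stress-high cells and the rest alike, carried an IFNy-sensing reporter, had gone through the digestion and had been sorted as CFP+, which the labels give as bystander tumour cells. Cells carried pairs of hashtags, antibody-borne tags that mark the sample of origin, and the labels tie no hashtag to a treatment, so the 15 hashtag pairs are described as 15 hashed samples without a treatment.

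In the integrated stress response, kinases that sense amino acid shortage, unfolded protein in the endoplasmic reticulum (ER), double-stranded RNA or mitochondrial and haem stress phosphorylate the translation factor eIF2. General protein synthesis then slows while the transcription factor ATF4 is translated, and ATF4 with its target CHOP (the product of DDIT3) switches on genes for amino acid supply, for the end of the response and for cell death. ER stress also runs through the sensors ATF6 and IRE1, whose outputs are ER chaperones and the factors that remove misfolded protein. In tumours these programmes are known for their activity where nutrients or oxygen are short and secretion is heavy.

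Stress-high cells had many more transcripts of ER chaperones and of ATF4 and CHOP targets than the rest of the same hashed samples. All 19 measured ER folding and quality control genes were higher, led by HERPUD1 at 13.4 times the rest, and 32 of 39 measured ATF4 and CHOP targets were higher, against 6.81% of all 7501 genes measured. A gene counts as measured at a mean of at least 0.1 counts per 10000 UMIs in kept cells. Oxidant defence genes were higher in part. Transcripts of the heat shock chaperone HSPA1A were high in a minority of the cells only. Summed counts of IFN-gamma and TNF targets were lower in most hashed samples.

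Promoter sequences of a few of these genes are shown as examples of known stress elements, which were found in some of the genes and not in others. They are the 250 bases before the gene start in RefSeq (GRCh38.p14), printed 5′ to 3′ on the gene's own strand, with matches in capitals. In CHAC1 (chr15:40953221-40953470, + strand), a rule gene that encodes a glutathione-degrading enzyme, the capitals mark the C/EBP-ATF response element bound by ATF4.
CHAC1: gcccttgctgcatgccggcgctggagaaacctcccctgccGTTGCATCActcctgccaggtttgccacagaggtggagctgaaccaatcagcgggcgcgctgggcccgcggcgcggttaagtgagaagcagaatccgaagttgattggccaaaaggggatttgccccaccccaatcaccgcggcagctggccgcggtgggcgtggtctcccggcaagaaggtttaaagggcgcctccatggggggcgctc
HERPUD1 (chr16:56931892-56932141, + strand), an ER membrane protein of the pathway that degrades misfolded protein, held the C/EBP-ATF response element and, nearer to the gene start, the ER stress response element II.
HERPUD1: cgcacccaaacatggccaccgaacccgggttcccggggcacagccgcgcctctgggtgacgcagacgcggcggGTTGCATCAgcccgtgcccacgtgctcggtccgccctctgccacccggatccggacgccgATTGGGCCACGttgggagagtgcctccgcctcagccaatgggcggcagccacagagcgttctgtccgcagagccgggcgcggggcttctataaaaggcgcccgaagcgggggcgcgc
HSPA5 (chr9:125241344-125241593, - strand), the ER chaperone BiP, held the ER stress response element of the ATF6 and XBP1 type.
HSPA5: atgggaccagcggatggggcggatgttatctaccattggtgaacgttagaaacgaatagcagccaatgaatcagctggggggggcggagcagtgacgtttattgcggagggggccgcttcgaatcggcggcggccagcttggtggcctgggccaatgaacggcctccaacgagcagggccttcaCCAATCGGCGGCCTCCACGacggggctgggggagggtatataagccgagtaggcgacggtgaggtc
SDF2L1 (chr22:21642052-21642301, + strand), a cofactor of BiP, and HYOU1 (chr11:119057206-119057455, - strand), a large ER chaperone, held the element II, HYOU1 at 2 places.
SDF2L1: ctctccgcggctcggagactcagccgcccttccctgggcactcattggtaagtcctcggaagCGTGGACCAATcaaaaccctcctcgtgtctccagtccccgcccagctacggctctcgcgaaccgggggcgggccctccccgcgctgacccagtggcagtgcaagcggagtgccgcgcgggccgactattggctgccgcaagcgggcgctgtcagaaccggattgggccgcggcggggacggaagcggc
HYOU1: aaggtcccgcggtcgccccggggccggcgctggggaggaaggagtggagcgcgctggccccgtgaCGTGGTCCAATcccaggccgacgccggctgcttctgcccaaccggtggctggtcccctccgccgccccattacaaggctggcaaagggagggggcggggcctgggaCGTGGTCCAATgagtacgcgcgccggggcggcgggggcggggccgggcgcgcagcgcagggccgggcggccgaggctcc

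The motifs were searched on both strands over the same 250 bases in all 27305 genes of the RefSeq promoter table. The ER stress response element (CCAAT and CCACG with any 9 bases between them, or CGTGG and ATTGG on the other strand) was found in 7 of the 19 ER folding genes with a window, namely CALR, CANX, CRELD2, HSP90B1, HSPA5, PDIA6 and XBP1, against 0.0916% of all genes. The element II (ATTGG and CCACG with any 1 base between them, or CGTGG and CCAAT on the other strand) was found in 3 of the 19, HERPUD1, HYOU1 and SDF2L1, against 0.0659% of all genes. The C/EBP-ATF response element (TGATGNAAN, NTTNCATCA on the other strand) was found in 11 of the 41 ATF4 and CHOP target genes with a window (26.8%), among them AARS, ASNS, CEBPG, GARS and SLC1A5, against 3.87% of all genes. It was found in 1 of the 4 rule genes, CHAC1, and in 1 of the 19 ER folding genes, HERPUD1 (5.26%). No gene of the ATF4 and CHOP lists held either ER stress element in this window. None of the 19 ER genes held both, and no match printed above overlaps another. These matches describe the letters of the windows only, and several of the genes are textbook examples of these elements.

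The cut on the score fell within a continuous range. The 3 lowest stress-high cells had 4.52, 4.56 and 4.58 counts of the 4 genes per 10000 UMIs, and the 3 highest cells of the rest had 4.50, 4.37 and 4.35. The median score was 8.89 in stress-high cells, with a highest value of 61.0, and 0 in the rest, of which 2210 cells (65.8%) had no count of any of the 4 genes. The score rested on few molecules per cell. The median was 10 counts in stress-high cells, 96 of the 177 had 10 or more, 22 had under 5 and 6 had under 3.

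DDIT3 (ENSG00000175197), which encodes the transcription factor CHOP, gave 72.7% of the counts that chose the cells and was the leading gene in 165 of 177. It was detected in 175 stress-high cells and in 787 of the rest. TRIB3 (ENSG00000101255), a pseudokinase that restrains ATF4 and AKT signalling, was detected in 105 stress-high cells and 392 of the rest. CHAC1 (ENSG00000128965) was detected in 82 stress-high cells and 125 of the rest, and SESN2 (ENSG00000130766), a leucine sensor that inhibits mTORC1, in 88 stress-high cells and 157 of the rest. All 4 genes were seen together in 31 stress-high cells and in 7 of the rest.

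Median depth and quality over all kept cells were close between the groups. Stress-high cells had a median of 11479 UMIs, 3126 detected genes and 12.2% mitochondrial UMIs, and the rest had 11568 UMIs, 3243 genes and 13.1%. Within hashed samples the median mitochondrial share differed most in HTO3+HTO6, at 8.47% in its 8 stress-high cells and 13.7% in the rest. Ribosomal protein genes took a median of 14.9% of UMIs in stress-high cells and 13.1% in the rest. A clear hashtag pair was missing for 19 stress-high cells (10.7%) and 375 of the rest (11.2%), and these were left out of every value within hashed samples, which left 158 stress-high cells and 2986 of the rest.

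Stress-high cells were found in each of the 15 hashed samples, at shares from 2.19% to 11.3% of kept cells. The lowest share was 3 of 137 cells in HTO4+HTO7 (2.19%, exact binomial 95% interval 0.454 to 6.27), and HTO3+HTO8, the sample with the most kept cells, had 14 of 630 (2.22%, 1.22 to 3.70). The highest was 8 of 71 cells in HTO3+HTO7 (11.3%, 4.99 to 21.0). The 3 largest contributors were HTO2+HTO6 with 24 cells (7.50%), HTO2+HTO7 with 22 (6.34%) and HTO2+HTO5 with 20 (6.58%). Most intervals overlapped each other, and that of HTO3+HTO8 lay below those of the last 3. The 2 hashed samples with under 5 stress-high cells were HTO4+HTO7 and HTO4+HTO8 (4 of 131, 3.05%). Ranges over samples below therefore cover the other 13, which held 151 stress-high cells, and the IFN-gamma and TNF lists are given for all 15. Overlap of these ranges was looked at for named genes and genes of the lists only, so no share over all genes stands beside it.

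**Figure D1:**
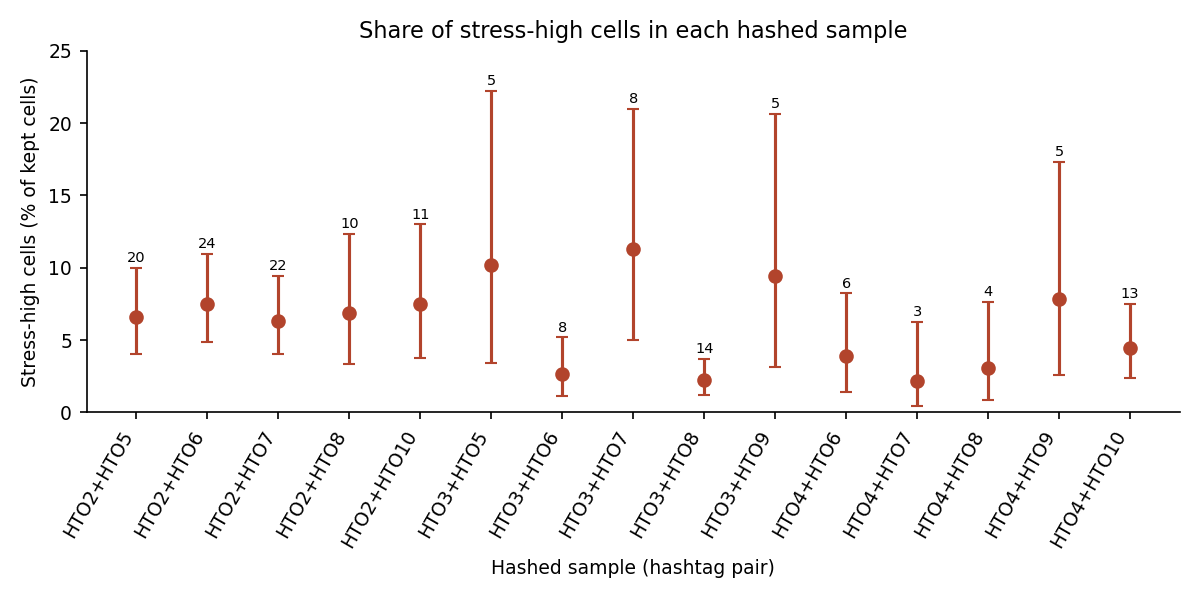
Share of stress-high cells among the kept cells (y axis, percent) in each of the 15 hashed samples (x axis). Points are shares, bars are exact binomial 95% intervals and the number above each bar is the count of stress-high cells; the shares run from 2.19% in HTO4+HTO7 to 11.3% in HTO3+HTO7, with wide intervals in samples of few cells.

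Because the hashed samples differed in their share of stress-high cells, each gene's counts in stress-high cells were divided by the counts expected at the level of the rest in the same hashed samples. A gene was called higher at a ratio of at least 1.5 with its exact Poisson 95% interval above 1, and lower at a ratio of at most 1/1.5 with the interval below 1. These intervals cover counting error in stress-high cells only, with the expected counts taken as fixed. The cells were chosen on counts of the same library, cells are not replicates and the labels tie no hashed sample to a group, so all values are descriptions with no test and no p-value. Of the 7501 measured genes, 511 (6.81%) were called higher and 821 (10.9%) lower, and 27 were at least 4 times the rest. In all 13 hashed samples, 150 of the higher genes and 93 of the lower ones lay on the same side. The median gene had a ratio of 0.922 (log2 -0.12). Relative to that median, 684 genes were higher and 556 lower, so higher genes made up 55.2% of those called rather than 38.4%.

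The transcription factors that act with ATF4 were higher as a group, at 2.02 times the rest (1.91 to 2.14). ATF4 itself, the master regulator of the response, had 2.00, 3.22 and 5.18 counts per 10000 UMIs as the lowest, median and highest of the 13 hashed samples in stress-high cells, and 1.03, 1.44 and 1.88 in the rest. The groups did not overlap, although much of the control of ATF4 lies in its translation, which transcript counts do not see. ATF3, a stress-induced repressor, was at 3.81 times the rest (3.24 to 4.45), with stress-high levels of 0, 0.666 and 5.66 against 0.0290, 0.162 and 0.659, so the groups overlapped. CEBPG, a dimer partner of ATF4, was at 2.58 times (2.19 to 3.01) and CEBPB at 1.81 times (1.55 to 2.1). ATF5, another factor translated under eIF2 phosphorylation, went the other way at 0.54 times the rest (0.417 to 0.688) and was lower in 10 of 13 samples. Of the 5 measured genes of this list, 4 were higher and 1 lower, read against 6.81% and 10.9% of all genes.

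Most amino acid supply genes were higher. Of 8 measured enzymes of amino acid synthesis and one-carbon metabolism 6 were called higher and none lower, against 6.81% and 10.9% of all genes. The list as a whole was at 2.86 times the rest (2.70 to 3.03). MTHFD2, a mitochondrial folate enzyme, had 2.07, 3.15 and 3.82 counts per 10000 UMIs in stress-high cells and 0.564, 0.965 and 1.44 in the rest, with no overlap between groups (3.28 times, 3.01 to 3.56). PCK2, the mitochondrial PEP carboxykinase, was at 3.97 times and PHGDH, the first enzyme of serine synthesis, at 3.25 times. PYCR1 and ALDH18A1, both of proline synthesis, were not called, at 1.15 (0.885 to 1.47) and 0.847 (0.517 to 1.31). ASNS, the classic ATF4 target asparagine synthetase, and PSAT1 of serine synthesis lay below the floor on level, at 11.3 (6.57 to 18.1) and 8.18 (6.44 to 10.2) times the rest.

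All 6 measured amino acid transporters were higher, against 6.81% of all genes. SLC3A2, the heavy chain shared by several exchangers, had 5.14, 8.09 and 9.24 counts per 10000 UMIs in stress-high cells and 1.91, 2.93 and 3.96 in the rest, again without overlap (2.46 times, 2.33 to 2.59). Its partner SLC7A11, the cystine importer, had 1.80, 2.82 and 5.22 in stress-high cells and 0.281, 0.851 and 1.95 in the rest (3.78 times, 3.48 to 4.09), and SLC7A5, the leucine importer, was at 1.77 times. SLC7A11 was higher in each of the 13 samples, while the ranges of the groups overlapped.

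Of the 11 aminoacyl-tRNA synthetases, the enzymes that charge tRNAs, 9 were higher and none lower, against 6.81% and 10.9% of all genes. GARS had 1.22, 3.55 and 4.58 counts per 10000 UMIs in stress-high cells and 0.850, 1.19 and 1.55 in the rest (3.18 times, 2.94 to 3.42), and it was higher in each of the 13 samples. AARS was at 3.07 times and EPRS at 2.30 times. NARS and LARS were not called, at 1.03 (0.780 to 1.33) and 1.03 (0.881 to 1.19).

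Among the effectors and feedback genes, 7 of 9 were higher and none lower, against 6.81% and 10.9% of all genes. PPP1R15A (GADD34), the phosphatase subunit that ends eIF2 phosphorylation, had 1.34, 3.08 and 4.92 counts per 10000 UMIs in stress-high cells and 0.283, 0.819 and 1.92 in the rest (3.29 times, 3.0 to 3.60). DDIT4, an mTORC1 inhibitor, was at 3.54 times (3.30 to 3.80) and EIF4EBP1, a repressor of cap-dependent translation, at 2.55 times. GDF15, a secreted stress hormone, was at 7.05 times (6.23 to 7.95), but 10 cells held 47.0% of its counts. TNFRSF10B, the death receptor DR5 and a known CHOP target, was not called at 0.897 (0.705 to 1.12) and was higher in 6 and lower in 7 samples.

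The 5 lists of ATF4 and CHOP targets together, without the 4 rule genes, were at 2.42 times the rest (2.38 to 2.47). Their summed level was 50.1, 57.9 and 66.4 counts per 10000 UMIs in stress-high cells and 19.8, 23.9 and 28.2 in the rest over the 13 samples, with no overlap. The median ratio of the 39 measured genes was 2.20, beside 0.922 over all genes. The eIF2 kinases and the subunits of eIF2 and eIF2B, which pass the signal on at the protein level, did not share this pattern. Of 11 measured genes none was higher and 1 was lower, against 6.81% and 10.9% of all genes. The lower gene was EIF2AK4 (GCN2, the amino acid sensor) at 0.602 (0.448 to 0.791). EIF2AK3 (PERK, the ER stress sensor) lay below the floor on level, with 4.99 times the rest (3.56 to 6.79).

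**Figure D2:**
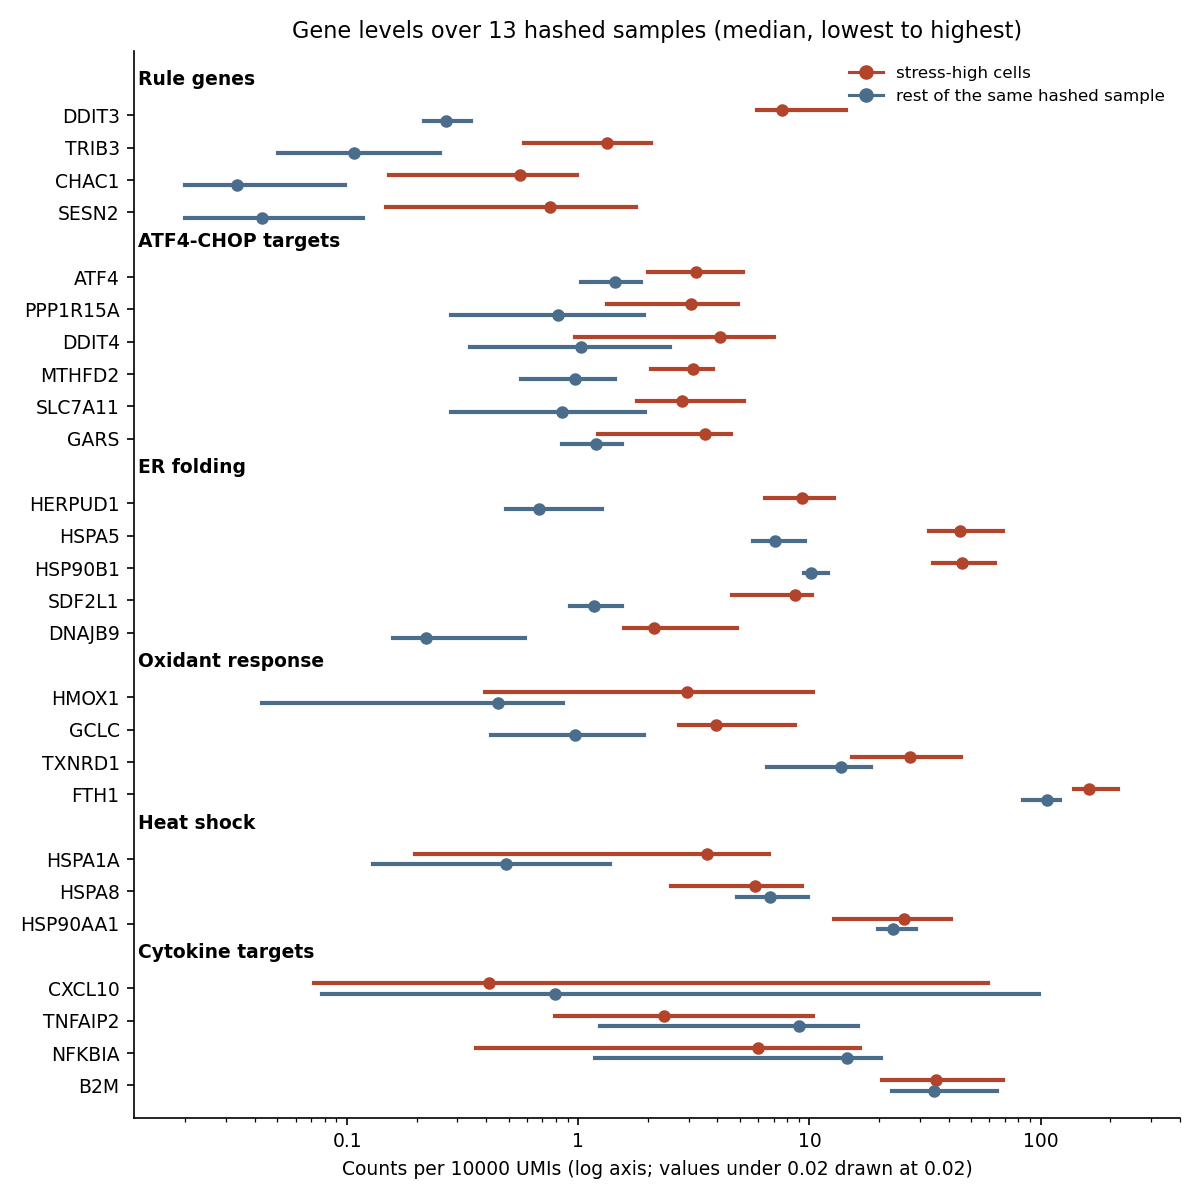
Counts per 10000 UMIs (x axis, log) of selected genes (y axis) in stress-high cells (red, upper line) and in the rest of the same hashed samples (blue, lower line). Points are medians and lines run from the lowest to the highest of 13 hashed samples; the ranges are apart for HERPUD1, HSPA5, HSP90B1 and SDF2L1 and overlap for HSPA1A, CXCL10 and NFKBIA.

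Of all lists apart from the rule genes, the ER folding genes had the highest ratio. HSPA5 had 33.1, 44.6 and 68.5 counts per 10000 UMIs as the lowest, median and highest of the 13 hashed samples in stress-high cells, and 5.70, 7.12 and 9.53 in the rest (6.33 times, 6.20 to 6.47). HSP90B1, the ER member of the HSP90 family, had 34.1, 45.6 and 63.7 in stress-high cells and 9.44, 10.2 and 12.0 in the rest (4.44 times, 4.34 to 4.53). HERPUD1 had 6.41, 9.28 and 12.8 in stress-high cells and 0.489, 0.677 and 1.27 in the rest (13.4 times, 12.8 to 14.1). For all 3 genes the lowest stress-high sample lay above the highest sample of the rest, which was not counted over all genes.

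DNAJB9, a BiP cochaperone that represses IRE1, was at 10.1 times the rest (9.22 to 11.1) and SDF2L1 at 6.44 times (6.12 to 6.78). FICD, the enzyme that switches BiP off and on, was at 8.00 times (6.67 to 9.53). HYOU1 was at 4.70 times, MANF, a secreted BiP partner, at 4.10 times and SYVN1, the ubiquitin ligase of ER degradation, at 4.28 times. The smallest ratios of the list were those of SEC61B, a translocon subunit, at 1.53 (1.45 to 1.62), CANX, a lectin chaperone, at 1.57 (1.47 to 1.67) and XBP1, the IRE1 effector, at 1.90 (1.69 to 2.13). Splicing of XBP1, on which its activity depends, cannot be read from these counts.

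As a list, the 20 ER genes summed to between 152 and 240 counts per 10000 UMIs in stress-high cells and between 49.0 and 59.9 in the rest of the same 13 samples (3.56 times, 3.52 to 3.60). The median ratio of its 19 measured genes was 3.43. Values within samples ran from 2.96 times in HTO4+HTO10 to 4.47 times in HTO4+HTO6. In HTO4+HTO8 and HTO4+HTO7, with 4 and 3 stress-high cells, the ratios were 2.14 and 1.89, and leaving out the highest cell, a check chosen after the values were seen that lowers any ratio by construction, gave 1.36 and 0.726, and 2.61 to 4.20 in the other 13. When each cell's UMIs were split at random, with the cells chosen on one part and the values taken from the other, the list was at 3.55 times the rest (3.50 to 3.60).

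The ER level was graded along the score and did not begin at the cut. It was 47.6 counts per 10000 UMIs in cells with no rule gene count and 50.6 in cells with a count below the highest 20%. In the bands from 10 to 20% and from 5 to 10% it was 64.9 and 99.0, and in stress-high cells it was 155 in the band from 2.5 to 5%, 205 from 1 to 2.5% and 226 in the top 1%. The ATF4 and CHOP targets were graded alike, at 21.1 with no rule gene count and 75.5 in the top 1%. Bands were not adjusted for hashed sample.

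**Figure D3:**
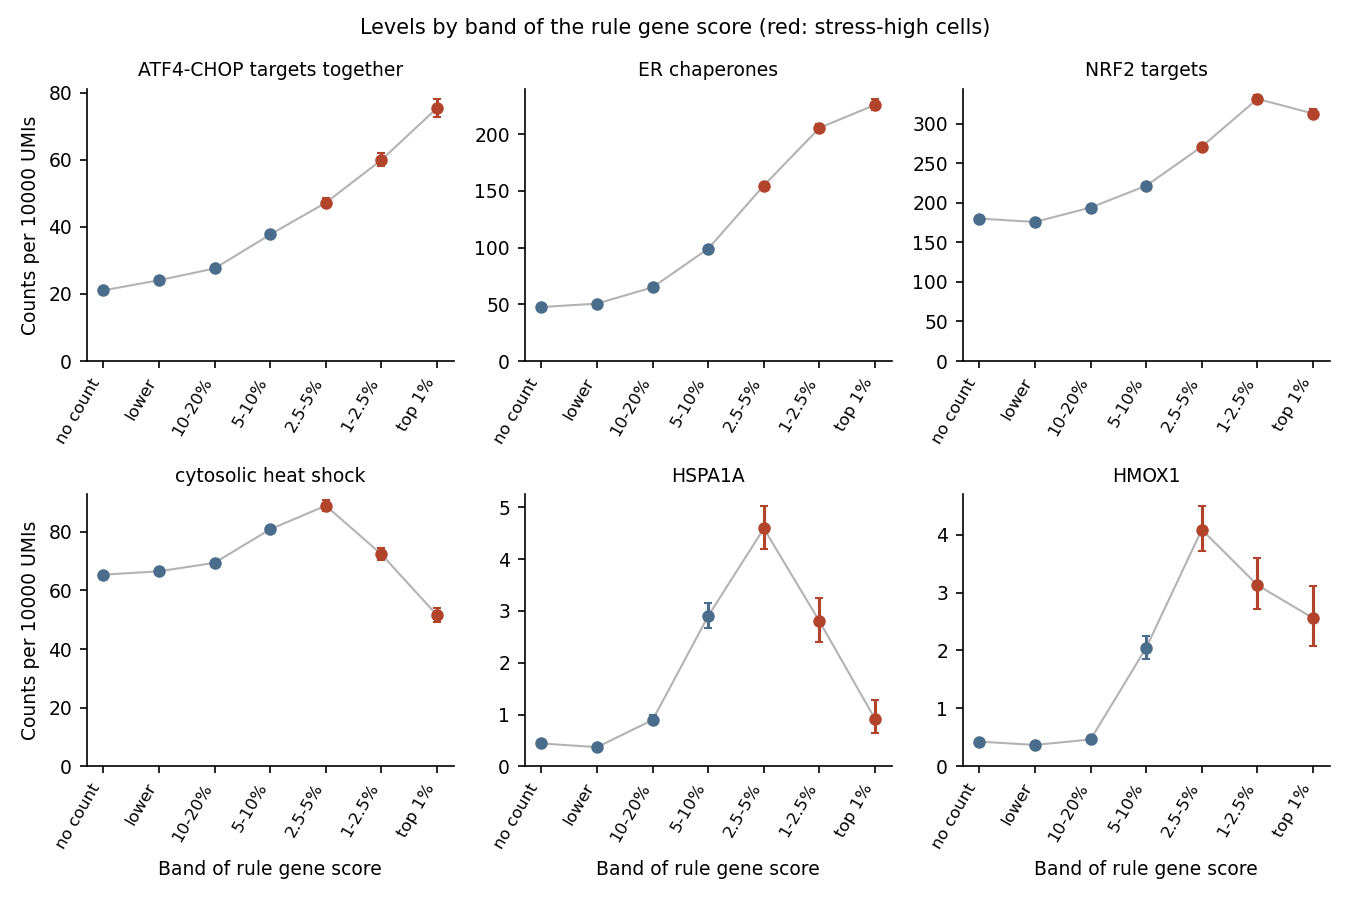
Counts per 10000 UMIs (y axes) of 4 gene lists and of HSPA1A and HMOX1 in 7 bands of the rule gene score (x axes, low to high), with exact Poisson 95% intervals, which are narrower than the points for most bands. Stress-high bands are red: ER chaperones climb to 226 in the top 1%, whereas HSPA1A is highest, at 4.59, in the band from 2.5 to 5% and is 0.914 in the top 1%.

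HSPA1A, one of the genes proposed to mark these cells, encodes the inducible cytosolic chaperone HSP70 and is driven by the heat shock factor HSF1. It had 0.197, 3.60 and 6.70 counts per 10000 UMIs in stress-high cells and 0.129, 0.486 and 1.37 in the rest, with overlap, and was higher in 10 of 13 samples (4.86 times, 4.47 to 5.27). In stress-high cells 10 cells held 74.2% of its counts, and 77.1% of those of HSPA1B (5.42 times, 4.62 to 6.31). HSPA1A and HSPA1B are near-identical copies that reads may not separate, so their split is uncertain. Along the score, HSPA1A was highest in the band from 2.5 to 5%, at 4.59, and stood at 2.90 in the band from 5 to 10% of the rest and at 0.914 in the top 1%.

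The cytosolic heat shock list as a whole was at 1.08 times the rest (1.07 to 1.10). Of 16 measured genes 4 were higher and none lower, against 6.81% and 10.9% of all genes. The other 2 of these 4 were BAG3, an HSP70 cofactor, at 2.94 times (2.47 to 3.48) and DNAJB1, an HSP40 cochaperone, at 1.66 times (1.42 to 1.94). HSP90AA1, with the most counts of the list, was at 1.03 (1.00 to 1.06) and HSPA8, the constitutive HSP70, at 0.776 (0.730 to 0.825). With the highest 2.5% of cells in place of 5% the list was at 0.932 times the rest (0.909 to 0.955). HSPA1A thus marked a minority of these cells, and the group is described by DDIT3, its ATF4 and CHOP targets and the ER folding genes.

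Among 9 mitochondrial chaperones and proteases, HSPA9 (mortalin) was the single gene called, at 1.77 times the rest (1.67 to 1.89). Over all genes 6.81% were called higher and 10.9% lower. The list was at 1.12. LONP1, the mitochondrial protease, was at 1.35 (1.03 to 1.74) and HSPD1 (HSP60) at 1.09 (1.05 to 1.14), both short of the threshold.

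Oxidant defence genes driven by NRF2 were higher in 10 of 17 measured cases, with none lower, against 6.81% and 10.9% of all genes. The list was at 1.63 times the rest (1.61 to 1.64). GCLC, the catalytic subunit of glutathione synthesis, had 2.73, 3.94 and 8.70 counts per 10000 UMIs in stress-high cells and 0.421, 0.967 and 1.92 in the rest, without overlap (4.05 times, 3.79 to 4.34). FTH1, the ferritin heavy chain, had 139, 162 and 216 in stress-high cells and 84.3, 106 and 122 in the rest, also without overlap (1.64 times, 1.62 to 1.65). TXNRD1, thioredoxin reductase, was at 2.25 times and GCLM at 3.07 times. NQO1, a quinone reductase, and PRDX1, a peroxidase, were not called, both at 1.20.

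HMOX1, haem oxygenase, had 0.394, 2.97 and 10.3 counts per 10000 UMIs in stress-high cells and 0.0430, 0.448 and 0.856 in the rest (8.46 times, 7.84 to 9.12). It was higher in each of the 13 samples, but 10 cells held 66.1% of its counts in stress-high cells. AKR1C1, an aldo-keto reductase, was at 5.81 times with 56.2% of counts in 10 cells. AKR1C1 has close paralogs that reads may not separate, so its level is uncertain.

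Single cells, thinned to 5000 UMIs each, differed in which lists exceeded a threshold. Thinning kept 159 stress-high cells and 3110 of the rest and left out 18 and 251 shallower ones. The ER list exceeded the 95th percentile of the rest in 126 of 159 stress-high cells (79.2%, exact binomial 95% interval 72.1 to 85.3), and the ATF4 and CHOP targets in 107 (67.3%, 59.4 to 74.5). NRF2 targets without ferritin did so in 73 (45.9%), HMOX1 in 32 (20.1%) and HSPA1A with HSPA1B in 23 (14.5%), where the last 2 thresholds were a single count. By construction about 5% or fewer of the rest exceeded each threshold. For the ATF4 and CHOP targets the threshold was 22 counts, near the stress-high median of 27 (quartiles 19.5 and 36). Counting error can move cells across a threshold, and its part in these counts of cells and in those below was not tested.

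Of the 159 thinned stress-high cells, 126 exceeded the threshold for the ER list and 107 that for the ATF4 and CHOP targets. Both were exceeded in 92 cells and neither in 18. The overlap that unrelated lists would give was not worked out, here or for the pairs below. The Spearman rho between the ER list and the ATF4 and CHOP targets over the 159 cells was 0.353, where both lists share the cell's fixed UMI total. HSPA1A with HSPA1B exceeded its threshold together with HMOX1 in 15 cells, of 23 and 32 cells with each. Of the 23 cells with high HSPA1A and HSPA1B, 21 were also above the ER threshold, as were 126 of all 159.

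**Figure D4:**
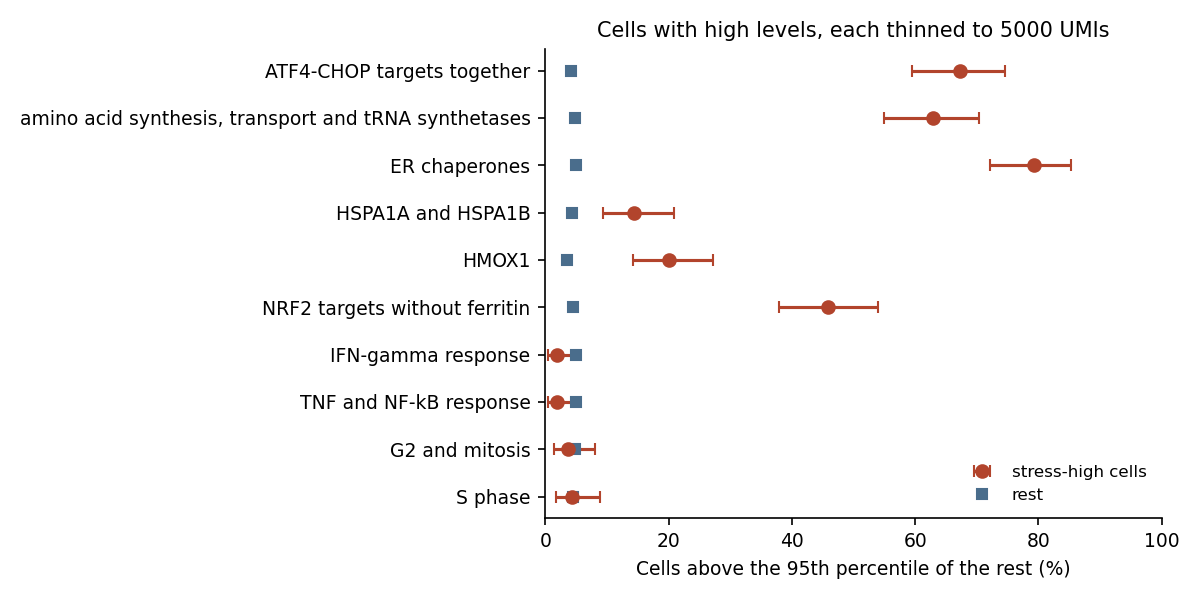
Percent of cells (x axis) above the 95th percentile of the rest for each list (y axis), in stress-high cells (red, with exact binomial 95% intervals, n = 159) and in the rest (blue, n = 3110), each cell thinned to 5000 UMIs. ER chaperones reach 79.2% of stress-high cells, HSPA1A with HSPA1B 14.5% and the IFN-gamma and TNF lists 1.89% each.

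Targets of IFN-gamma, the T cell cytokine that induces antigen presentation, were lower in stress-high cells than in the rest by summed counts. This held in 13 of 15 hashed samples. Of 28 measured genes 11 were lower and 1 higher, against 10.9% and 6.81% of all genes, and the list was at 0.747 times the rest (0.735 to 0.759), or 0.811 times relative to the median gene, where 10 genes were lower. The level of the list in the rest lay between 219 and 332 counts per 10000 UMIs in 5 hashed samples and between 7.78 and 20.5 in the other 10, and each sample's values are given for stress-high cells first.

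In the 5 samples with high levels, the list stood at 260 counts per 10000 UMIs against 323 in HTO2+HTO7, 168 against 332 in HTO3+HTO6 and 144 against 219 in HTO3+HTO9. It stood at 231 against 288 in HTO4+HTO6 and at 216 against 303 in HTO4+HTO9. All 5 were lower in stress-high cells, at between 0.507 and 0.805 times the rest. The lowest ratio was that of HTO3+HTO6, where mitochondrially encoded genes were at 0.585 times the rest, and without that sample the list was at 0.794 over the others. The part of the mitochondrial share in this value was not tested. In 4 of them 0 or 1 stress-high cell exceeded the median cell of the rest, and in HTO2+HTO7 5 of 22 did.

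In the other hashed samples the list stood at 10.1 against 11.5 in HTO2+HTO5, 15.4 against 19.9 in HTO2+HTO6 and 8.43 against 8.59 in HTO2+HTO8. It stood at 8.55 against 18.9 in HTO2+HTO10, 9.68 against 10.8 in HTO3+HTO5 and 17.7 against 20.5 in HTO3+HTO8. In HTO4+HTO7 and HTO4+HTO8, with 3 and 4 stress-high cells, it stood at 4.88 against 8.89 and 9.82 against 15.7. The exact Poisson intervals of stress-high cells and the rest overlapped in HTO2+HTO5, HTO2+HTO8 and HTO3+HTO5. They cover counting error of summed counts only, so intervals that lie apart in other samples do not show that the cells differed. In HTO2+HTO6 and HTO3+HTO8, where they lay apart, the median cell stood at 13.8 against 14.5 and at 16.3 against 17.5. By single cells, 11 of 20 stress-high cells exceeded the median cell of the rest in HTO2+HTO5 and 11 of 24 in HTO2+HTO6. It was 5 of 10 in HTO2+HTO8 and 6 of 14 in HTO3+HTO8. In HTO2+HTO5 the median cell stood at 9.49 in stress-high cells and 8.92 in the rest, whose highest cell stood at 219. In HTO2+HTO10, HTO3+HTO5 and HTO4+HTO8, 1 stress-high cell each exceeded the median cell of the rest, and in HTO4+HTO7 none did.

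Of the 2 samples that went the other way, HTO3+HTO7 stood at 8.41 against 7.78, with overlapping intervals, and HTO4+HTO10 at 22.6 against 12.2, or 1.85 times the rest. In HTO4+HTO10 the highest of 13 stress-high cells, at 102 counts per 10000 UMIs, held 27.9% of the list's counts and lay above all 278 cells of the rest. Leaving out the highest stress-high cell, which lowers the ratio of any sample by construction, gave 1.42 in HTO4+HTO10, 0.893 in place of 1.08 in HTO3+HTO7, and 0.348 to 0.843 in place of 0.452 to 0.981 over the other 13.

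By gene, several chemokines and enzymes of the list were lower, and its transcription factor IRF1 was not called. CXCL10, a ligand of the T cell receptor CXCR3, had up to 59.3 counts per 10000 UMIs in a sample's stress-high cells and up to 98.7 in the rest (0.534 times, 0.514 to 0.554), and was lower in 10 of 13 samples. CXCL11, a further CXCR3 ligand, was at 0.389 times, IDO1, the tryptophan-degrading enzyme, at 0.566 times, TNFSF10 (TRAIL) at 0.461 times and SOCS1, the feedback inhibitor, at 0.319 times. IRF1 was at 0.878 (0.842 to 0.915), and GBP1, an antimicrobial GTPase, was not called either at 0.966 (0.926 to 1.01). WARS, the single higher gene of the list at 1.52 times (1.44 to 1.61) and in 12 of 13 samples, is itself a tRNA synthetase.

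By summed counts, TNF and NF-kB targets were lower in 12 of 15 hashed samples. Of 33 measured genes 14 were lower and 1 higher, against 10.9% and 6.81% of all genes. The list was at 0.804 times the rest (0.791 to 0.817), or 0.872 relative to the median gene, where 10 genes were lower. The list stood at 82.4 counts per 10000 UMIs in stress-high cells against 122 in the rest in HTO2+HTO6, 137 against 153 in HTO2+HTO7 and 62.8 against 110 in HTO2+HTO10. It stood at 64.7 against 87.5 in HTO3+HTO5, 84.1 against 158 in HTO3+HTO6 and 108 against 126 in HTO3+HTO8. The lowest ratio of all, 0.458, was in HTO3+HTO9, with 61.7 against 135.

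For the hashed samples that joined HTO4, the list stood at 108 against 142 in HTO4+HTO6, 124 against 164 in HTO4+HTO9 and 86.9 against 116 in HTO4+HTO8. In the samples with low levels in the rest it stood at 16.2 against 17.9 in HTO2+HTO8 and 16.9 against 30.4 in HTO4+HTO7. It was higher in stress-high cells in HTO2+HTO5, at 46.0 against 29.1, in HTO3+HTO7, at 45.4 against 26.7, and in HTO4+HTO10, at 36.8 against 26.2. The list was thus lower in each of the 10 samples where the rest stood at 87.5 counts per 10000 UMIs or more and higher in 3 of the 5 where it stood at 30.4 or less. In HTO2+HTO8 the intervals of the groups overlapped.

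Leaving out the highest stress-high cell lowers the ratio of any sample by construction. For the TNF and NF-kB list it gave 0.371 to 0.858 in place of 0.458 to 0.906 over the 12 samples that were lower. In HTO3+HTO7 the highest of 8 stress-high cells held 49.3% of the counts, and without it the ratio was 1.03 in place of 1.70. In HTO2+HTO5 and HTO4+HTO10 the ratios were 1.40 in place of 1.58 and 1.21 in place of 1.41, and 13 of 20 and 10 of 13 stress-high cells exceeded the median cell of the rest.

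**Figure D5:**
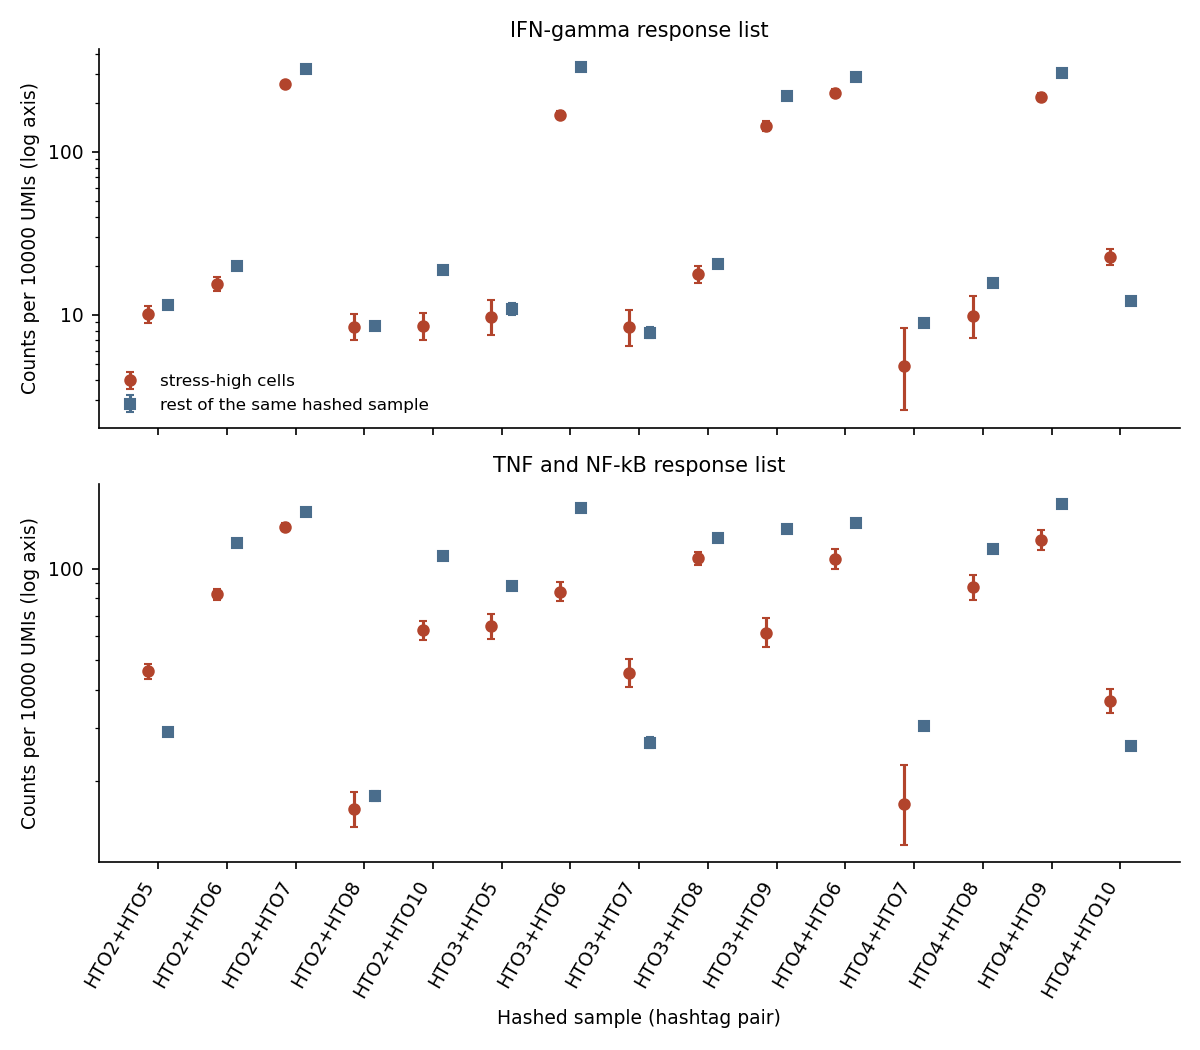
Summed counts per 10000 UMIs (y axes, log) of the IFN-gamma list (upper panel) and the TNF and NF-kB list (lower panel) in stress-high cells (red circles, left) and the rest (blue squares, right) of each of the 15 hashed samples, with exact Poisson 95% intervals. Stress-high cells lie lower in 13 samples for IFN-gamma and in 12 for TNF and NF-kB; HTO4+HTO10 and HTO3+HTO7 lie higher in both panels.

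CCL2, the monocyte chemokine, was lower in each of the 13 hashed samples at 0.272 times the rest (0.213 to 0.342), with a median of 0 counts per 10000 UMIs in stress-high cells and 1.82 in the rest. NFKBIA, the NF-kB inhibitor and an early target, had 0.360, 6.01 and 16.5 in stress-high cells and 1.18, 14.6 and 20.3 in the rest (0.652 times, 0.618 to 0.688), with overlap. BIRC3, an inhibitor of apoptosis, was at 0.428 times and TNFAIP3 (A20), a brake on NF-kB, at 0.507 times. CXCL8, the neutrophil chemokine, was not called at 0.981 (0.921 to 1.04), and CXCL2, the single higher gene, was at 1.65 (1.28 to 2.1) but higher in only 6 of 13 samples. BCL2A1, an NF-kB-driven survival gene among the 10 genes with the lowest ratios of all, was at 0.164 times (0.0751 to 0.312) from 9 counts.

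Antigen presentation by MHC class I was nearly level. The list was at 0.971 times the rest (0.954 to 0.987), which is 1.05 relative to the median gene. None of 11 genes was higher and 2 were lower, against 6.81% and 10.9% of all genes. The lower genes were TAPBP (tapasin) at 0.614 and ERAP2, a peptide-trimming peptidase, at 0.489. B2M, the light chain of class I molecules, was at 0.930 times. Reads of HLA genes can be shared between loci, so the values of these lists are uncertain. None of the 4 measured MHC class II genes was called, and that list was at 0.905 (0.825 to 0.991).

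Interferon-stimulated genes of the type I kind were at 0.701 times the rest (0.685 to 0.717). Of 21 measured genes 7 were lower and none higher, against 10.9% and 6.81% of all genes. ISG15, a ubiquitin-like modifier, was at 0.682 and IFI27 at 0.721 times, and both were lower in each of the 13 samples. Of 8 cytokine receptors and adaptors 3 were lower and none higher, read against the same shares of all genes. IFNGR2, the signalling chain of the IFN-gamma receptor, had 0.259, 0.394 and 1.40 counts per 10000 UMIs in stress-high cells and 0.518, 1.15 and 2.01 in the rest (0.510 times, 0.419 to 0.614), and was lower in each of the 13 samples. TNFRSF1B (TNFR2) was at 0.297 and TRAF2, a TNF receptor adaptor, at 0.468 times, while TNFRSF1A (TNFR1) was not called at 1.02 (0.887 to 1.18).

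Death genes were mixed. Of 15 measured p53 targets and BCL2 family genes, 2 were higher and 3 lower, against 6.81% and 10.9% of all genes, and the list was at 0.923 times the rest. Relative to the median gene the list was at 1.00, with 3 genes higher and 2 lower. The higher genes were PMAIP1 (NOXA), at 1.65 times (1.51 to 1.81) and in each of the 13 samples, and BCL2L11 (BIM), at 1.79 times (1.25 to 2.47) and in 8 of 13, both known to respond to ATF4 or CHOP. BAK1, BCL2L1 (BCL-XL) and PHLDA3 were lower, at 0.570, 0.660 and 0.564 times. CDKN1A, the p53 target p21, was not called at 0.794 (0.656 to 0.952), nor was MDM2 at 1.12 (0.887 to 1.39).

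Other programmes were mixed, read against 6.81% of all genes higher and 10.9% lower. Of 11 sterol synthesis genes 4 were higher and 1 lower, the higher ones including INSIG1, an ER sterol regulator, at 3.48 times and STARD4, a sterol carrier, at 2.96 times, and the list was at 1.25. Of 15 hypoxia and glycolysis genes VEGFA, the angiogenic factor, BNIP3L, a mitophagy receptor, and HK2, a hexokinase, were higher at 1.65, 1.96 and 1.69 times, PFKFB3, a driver of glycolysis, was lower at 0.442, and the list was at 0.929, or 1.01 relative to the median gene. Of 11 immediate early genes, DUSP1, KLF6 and KLF4 were higher at 3.24, 1.88 and 1.76 times and JUNB and EGR1 lower at 0.562 and 0.545, and the list was at 1.03. None of 20 nuclear oxidative phosphorylation genes was called, at 0.866 times for the list, which was lower in 12 of 13 samples.

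Proliferation genes gave few calls, beside 6.81% of all genes higher and 10.9% lower. In the G2 and mitosis list none of 12 was higher and 2 were lower, AURKA, a mitotic kinase, at 0.238 and CENPE, a kinetochore motor, at 0.371 times, and the list was at 0.754 (0.696 to 0.816). It was lower in 9 of 13 samples, with a median ratio by sample of 0.268, and stood at 2.44 and 3.35 times the rest in HTO2+HTO8 and HTO3+HTO6. Without HTO2+HTO8 the list was at 0.613. Its levels in stress-high cells were 0.147, 0.636 and 11.2 counts per 10000 UMIs and in the rest 0.720, 4.08 and 5.81. In the S phase list 1 of 15 was higher, the replication licensing factor CDC6 at 3.46 times (2.82 to 4.20), and MCM4 and HELLS were lower. The S phase list was at 1.04 times the rest over all hashed samples but lower in 9 of 13, with a median ratio by sample of 0.796. It was at 3.72 times in HTO3+HTO6, with 8 stress-high cells, and at 0.945 without that sample. After thinning, 6 of 159 stress-high cells exceeded the 95th percentile of the rest for G2 and mitosis and 7 for S phase.

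The remaining genes with the highest ratios, apart from those of the lists, were MXD1, a MYC antagonist, at 6.43, WIPI1, an autophagy protein, at 5.64, GFPT1, the entry enzyme of the hexosamine pathway, at 5.48, SEC24D, a cargo adaptor for export from the ER, at 5.23 and CCNG2, an atypical cyclin, at 4.77 times the rest. GFPT1 had 1.55, 2.59 and 4.25 counts per 10000 UMIs in stress-high cells and 0.394, 0.473 and 0.838 in the rest, with no overlap. The remaining genes with the lowest ratios rested on few counts in stress-high cells. DMBT1 and ADAMTS9 had 2 counts each, at ratios of 0.0962 (0.0116 to 0.347) and 0.0964 (0.0117 to 0.348), and MCC had 3 at 0.146 (0.0300 to 0.426). FAM89A, PIK3AP1, TRIM15 and C12orf73 had 4 counts each and JADE2 and ZNF503 had 6 each, at ratios between 0.126 and 0.194.

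Epithelial markers were present, and markers of other cell types were at or near 0 apart from CD68 and EGFL7. KRT8, KRT18 and EPCAM, epithelial markers, were at 0.837, 0.848 and 0.892 times the rest. The list of 13 was at 0.841 times and lower in 12 of 13 samples. Among 11 measured genes 1 was higher, CLDN4 at 1.58, and 1 lower, against 6.81% and 10.9% of all genes. T or NK cell markers gave 5 counts in stress-high cells, all of CD7 and with CD3D, CD3E and PTPRC at 0, and the list was at 0.305 times the rest (0.0989 to 0.711). B cell and erythroid markers gave 0 counts, which allows up to 0.0159 counts per 10000 UMIs at 3 counts over the group. Fibroblast markers gave 4 counts. Of 6 endothelial markers 2 had counts, PECAM1 and EGFL7, and VWF and CDH5 were among those at 0. EGFL7 had a median of 0.440 in stress-high cells and 0.476 in the rest, and the endothelial list was at 0.893. The myeloid list was at 1.19 (0.989 to 1.43), with counts for 7 of its 9 genes. CD68, a lysosomal marker that epithelial cells also express, was called higher at 1.52, and CSF1R and FCGR3A were at 0. LYZ, CD14, AIF1, TYROBP, FCER1G and ITGAM had counts in stress-high cells, each with a median of 0 over the hashed samples. LYZ reached 0.290 counts per 10000 UMIs in a sample. Ribosomal protein genes were at 1.12 times the rest with none of 82 higher and 1 lower, and mitochondrially encoded genes at 0.948, or 1.03 relative to the median gene, with none of 13 called. The part of these values in the differences above was not tested.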

How the data were processed

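The same pool of cells was read as 10x Genomics 3' gene expression and, in another library, as hashtags. The authors deposited raw counts of UMIs for each gene or hashtag in each barcode, not normalised, for 5269 barcodes. Per the file headers, Cell Ranger 5.0.1 wrote the matrix, whereas per the submitters' processing notes Cell Ranger 2.1.1 and GRCh38 were used, and this difference was not resolved. The calling of cells from barcodes by the authors is not given in the sources used. Counting at the 3' end does not separate near-identical copies.

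Kept cells held 44183430 UMIs, 2089242 of them in stress-high cells. For its hashtag pair, a cell needed 10 or more counts of its second hashtag and 3 or more times as many as of the next one. Pairs of 30 or more kept cells entered. No doublet caller was run. Droplets with no clear pair were left out of all values within hashed samples, and doublets within a sample were not detected. Levels are counts per 10000 gene UMIs. Ratios are observed counts over those expected from the rest of the same hashed samples, with exact Poisson intervals (scipy 1.17.1, numpy 2.4.6, pandas 2.3.3, Python 3.11.15). The arithmetic was checked on simulated Poisson counts. These leave out the gathering of counts in few cells, so the check says nothing about the calls. Intervals and the limit of 3 counts for a count of 0 cover counting error only, and variation between cells is wider. Intervals of ratios also leave out counting error in the rest.

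Named genes are the rule genes, genes of the lists, and the 15 highest and 10 lowest ratios among called genes on the same side in at least 75% of the 13 hashed samples with 5 or more stress-high cells. The members and lists were chosen with earlier results of these data known. Alternatives covered the adjustment, the size of the group, cell filters, thinning, split UMIs, the pair rule, each rule gene left out, each hashed sample left out, the floor on level and division by the median gene, the last added after seeing the data. Promoter windows came from RefSeq (GRCh38.p14), 250 bases before each gene start. Some genes of the lists are not reported here by name.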

Additional observations from a re-analysis of the deposited data

Results flagged for a closer look

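Among the 1731 barcodes removed for few genes or a high mitochondrial share, 45 (2.60%) had a rule gene score at or above that of the lowest stress-high cell, a signal in data the comparisons did not use. Their ER chaperone list stood at 157 counts per 10000 UMIs (152 to 162), against 42.2 (41.8 to 42.6) in the other 1686 removed barcodes. Their median depth was 3056 UMIs with 23.4% mitochondrial UMIs, against 4520 UMIs and 29.4% in the others, and the part of depth and mitochondrial share in these levels was not tested.

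The 19 stress-high cells without a clear hashtag pair were outside every value within hashed samples. Their ER chaperone list stood at 141 counts per 10000 UMIs (136 to 146), against 54.3 (53.7 to 54.9) in the 375 cells of the rest without a pair. Their median depth was 7498 UMIs, against 13147 in those cells of the rest. The IFN-gamma list was nearly level between these groups, at 88.6 (84.5 to 92.7) against 89.8 (89.0 to 90.6). The TNF and NF-kB list stood at 80.4 (76.6 to 84.4) against 97.5 (96.6 to 98.3). The cytosolic heat shock list stood at 87.5 (83.5 to 91.6) against 62.6 (62.0 to 63.3). None of these levels was adjusted for hashed sample.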

How the results depend on the processing

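The ATF4 and CHOP target list and the ER list stayed above 1, and the IFN-gamma and TNF lists below 1, under every alternative run. With the highest 2.5% of cells, the ATF4 and CHOP list was at 2.72, the ER list at 3.91, the IFN-gamma list at 0.666 and the TNF list at 0.764, and the heat shock list reversed to 0.932. With the highest 10% the same lists were at 2.12, 2.94, 0.852, 0.862 and, for heat shock, 1.15, with 378 genes lower. At most 15% mitochondrial UMIs gave 2.49 for ATF4 and CHOP, 3.50 for ER, 0.654 for IFN-gamma, 0.776 for TNF and 1.02 for heat shock. With no adjustment for hashed sample the ER list was at 3.48, IFN-gamma at 0.772, TNF at 0.766 and heat shock at 1.15. With cells thinned to 5000 UMIs before the choice, ER was at 3.48, IFN-gamma at 0.762 and heat shock at 1.18, and on held-out UMIs TNF was at 0.825. Choosing the highest 5% of each hashed sample gave ER 3.35, TNF 0.820 and heat shock 1.11, and the stricter pair rule of 10 times gave IFN-gamma 0.733 and TNF 0.788.

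A score without DDIT3 gave ER 2.76, IFN-gamma 0.815, TNF 0.854 and heat shock 1.00, with 538 genes lower. Without TRIB3, heat shock was at 1.06 and TNF at 0.821, without CHAC1 heat shock was at 1.16 and ER at 3.64, and without SESN2 heat shock was at 1.11 and IFN-gamma at 0.726. A floor of 0.02 on level gave 774 genes higher, and one of 0.5 gave 182 higher and 228 lower, from more and fewer genes measured. Division by the median gene gave ATF4 and CHOP 2.63, ER 3.86, heat shock 1.18, IFN-gamma 0.811 and TNF 0.872. Leaving out each hashed sample in turn gave 2.38 to 2.45 for ATF4 and CHOP, 3.44 to 3.60 for ER, 1.04 to 1.15 for heat shock, 0.689 to 0.794 for IFN-gamma and 0.768 to 0.832 for TNF. It gave 478 to 533 genes higher, 792 to 883 lower, a lowest share of 2.19% to 2.22% and a highest of 10.2% to 11.3%. Done for the other lists as well, after the values were seen, it changed the side of the S phase list alone, to 0.945 without HTO3+HTO6. The shares have no value without hashed samples. Where no construction shows it, the cause was not tested.

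No paired test was run, although each ratio sets stress-high cells beside the rest of the same hashed sample. The cells were chosen on counts of the same library, and the labels tie no hashed sample to a treatment. Hashed samples with 3 to 14 stress-high cells give wide intervals, and cells near the cut rest on few molecules.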
